A study of Caenorhabditis elegans with 8 samples.

Results

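The genes described here encode the machines that carry nuclear-encoded proteins into mitochondria, 10 of the 20871 genes in a table of read counts from whole adult Caenorhabditis elegans. They were chosen by gene identifier as timm-23 (F15D3.7), timm-17B.1 (E04A4.5), tomm-20 (F23H12.2), tomm-22 (W10D9.5), tomm-40 (C18E9.6), tomm-70 (ZK370.8), gop-3 (C34E10.1), tin-44 (T09B4.9), tin-10 (Y66D12A.22) and tin-9.1 (C06G3.11), with no measured value in the rule. The tested worms, written mtch-1(RNAi), ate HT115 Escherichia coli producing double-stranded RNA against mtch-1, and the control worms, written EV, ate the same bacteria carrying the empty L4440 vector. Each group has 4 samples. All worms grew at 20 °C with 1 mM IPTG in the plates, on bacteria induced at 37 °C for 3 h with 5 mM IPTG. They were on their plates from hatching to day 3 of adulthood, and each sample pools about 200 adults. The worm strain is not given in the sources used here. Feeding RNAi lowers a transcript without deleting the gene, and which tissues it reached was not measured.

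Most mitochondrial proteins are made in the cytosol and enter through a chain of membrane machines. In the outer membrane, the receptors TOM20, TOM22 and TOM70 bind incoming proteins and the TOM40 channel lets them through, while SAM50 builds barrel-shaped proteins into that membrane. In the inner membrane, TIM23 and TIM17 form the route for proteins with a cleavable targeting sequence, and TIM44 ties that route to a motor driven by mitochondrial HSP70. TIM9 and TIM10 form a soluble chaperone ring that carries hydrophobic proteins across the space between the membranes. These roles are best known from yeast and mammals, and the worm genes are named here by their homology. mtch-1 itself encodes a mitochondrial carrier homolog of the outer membrane.

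Sequencing depth was similar in the 2 groups. Total gene counts ran from 20626184 to 22748868 in mtch-1(RNAi) samples and from 18710833 to 23608608 in EV samples. The targeted gene mtch-1 stood at 34.3 to 58.0 CPM in mtch-1(RNAi) samples and at 264 to 291 CPM in EV samples, where CPM is the gene count scaled to library size with TMM factors. Each of the 10 import genes had at least 811 reads in every sample and passed the filter on low counts. Whole worms mix all tissues, so fewer cells of a type and less RNA per cell cannot be told apart. Summed CPM of 10 germline and oocyte markers was 8567 to 9116 in mtch-1(RNAi) samples and 10161 to 11016 in EV samples, with 8 of the 10 markers lower by the test used here and 0 higher. Of 8 intestinal and 6 body wall muscle markers none passed that test. Among 6 neuronal and 6 hypodermal markers 1 of each was higher. By the same test 10% of all genes tested were higher and 13% lower. Among those with a mean of at least 5 CPM the shares were 11% and 19.4%. Of 5 sperm markers measured, only spe-41 was tested, and it was higher, with a mean of 17.5 CPM in mtch-1(RNAi) and 8.02 CPM in EV. The other sperm markers had at most 13 reads in any sample. The summed CPM of the 5, 16.8 to 19.6 in mtch-1(RNAi) samples and 7.38 to 9.49 in EV samples, is thus almost wholly spe-41. No tissue marker in the table was at 0 in all samples. The part that such tissue differences play in the changes given here was not tested.

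After mtch-1 RNAi the import genes moved in different directions, and timm-23 changed most. Of the 10 genes, 3 rose (timm-23, timm-17B.1 and tin-10), 2 fell (tin-44 and tomm-70) and 5 did not pass the test. A call means an adjusted p under 0.05 in edgeR's quasi-likelihood test, with Benjamini-Hochberg adjustment over all 13252 genes tested. Among all genes tested, 10% were called higher and 13% lower, or 23% in either direction. Among the 8534 tested genes with a mean of at least 5 CPM, the range in which all 10 import genes lie, 30.4% were called, 11% as higher and 19.4% as lower. That split depends on the scaling: fitted and scaled on genes of at least 5 CPM alone, 1354 of 8533 genes (15.9%) were called higher and 1376 (16.1%) lower. The median log2 fold change of the 10 genes was 0.10, beside 0.01 over all genes tested, and the median size of change regardless of direction was 0.17 beside 0.19. Among fits without pairing, the receptor gene tomm-70 is the least secure of the 5 calls, the only one that some alternatives lost. With the replicate number as a block its edgeR adjusted p was 0.000641, below that of tin-10 (0.00182).

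**Figure D1:**
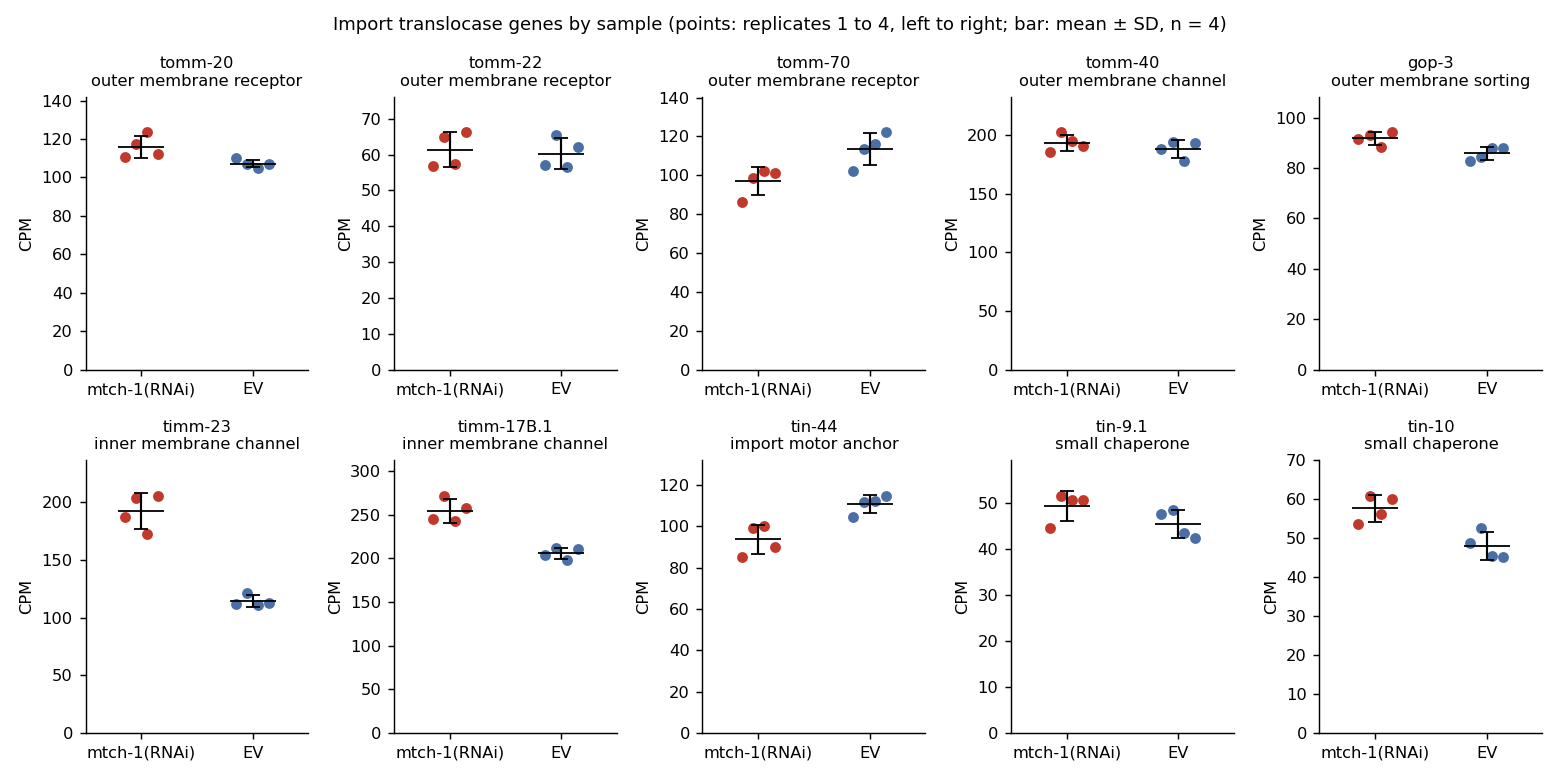
Level of each of the 10 import genes in CPM (vertical axes, from 0) in the 4 mtch-1(RNAi) samples and the 4 EV samples, with the mean ± SD. timm-23 shows the widest gap, with 172 to 206 CPM in mtch-1(RNAi) samples and 111 to 122 CPM in EV samples, while tomm-22 and tomm-40 overlap between groups.

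Of the inner membrane route, timm-23 and timm-17B.1 rose while tin-44 fell. timm-23, the gene of the channel-forming subunit of that route, stood at 187, 203, 172 and 206 CPM in mtch-1(RNAi) replicates 1 to 4 and at 112, 122, 111 and 113 CPM in EV replicates 1 to 4. The lowest mtch-1(RNAi) sample lay well above the highest EV sample. The mean was 192 ± 15.6 CPM in mtch-1(RNAi) and 114 ± 4.91 CPM in EV (SD, n = 4), a log2 fold change of 0.75 (SE 0.06; edgeR adjusted p = 8.82e-06). That is a 1.68-fold higher level, with a 95% interval of 1.54 to 1.84. In size the change exceeded that of 93.4% of all genes tested. timm-23 is the only one of the 10 with a log2 change above 0.5 in size, as 1956 of the 13252 genes tested have. The gene lies on chromosome I of WBcel235 (11578641 to 11579612, plus strand) with 3 exons in its annotated transcript, and no other annotated gene overlaps it.

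timm-17B.1 encodes the TIM17 partner of TIM23 in the same translocase. Its level was 244, 272, 243 and 258 CPM in mtch-1(RNAi) samples and 204, 212, 198 and 210.2 CPM in EV samples. All mtch-1(RNAi) samples were above all EV samples. This gave a log2 difference of 0.31 (SE 0.05; edgeR adjusted p = 0.000764), from means of 254 ± 13.5 CPM in mtch-1(RNAi) and 206 ± 6.44 CPM in EV (SD, n = 4). The gene lies on chromosome IV (4744377 to 4745492, minus strand, 5 exons). The annotation holds a further TIM17 gene, timm-17B.2, which stood at 8.0 to 11.1 CPM in mtch-1(RNAi) samples and 8.52 to 11.4 CPM in EV samples. Per kilobase of gene length, timm-17B.1 exceeded timm-17B.2 by 11.1 to 13.8 times in mtch-1(RNAi) samples and by 8.42 to 10.8 times in EV samples. timm-17B.2 was not called (log2 fold change -0.03, 95% interval -0.33 to 0.27; edgeR adjusted p = 0.907). How the authors' counting treated reads that fit both genes is not given in the sources used here, which leaves the split between them uncertain.

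tin-44, the gene of the TIM44 subunit that holds the motor at the inner side of the channel, went the other way. It stood at 85.3, 99.1, 100.1 and 90.2 CPM in mtch-1(RNAi) samples and at 105, 112, 112 and 115 CPM in EV samples. Every mtch-1(RNAi) sample was below every EV sample. Means were 93.7 ± 7.13 CPM in mtch-1(RNAi) and 111 ± 4.44 CPM in EV (SD, n = 4), a log2 fold change of -0.24 (SE 0.06; edgeR adjusted p = 0.00799). On chromosome I (6177934 to 6180840, minus strand, 11 exons), 134 of its 1586 exonic bases are shared with T09B4.3 on the opposite strand, and whether counting used strand is not given. T09B4.3 had 3 to 12 reads in mtch-1(RNAi) samples and 1 to 4 in EV samples, beside at least 1889 reads for tin-44 in every sample. The fall of tin-44 was close in size to that of the germline markers, whose median log2 fold change was -0.25; their part in it was not tested.

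The small chaperone genes both had higher means in mtch-1(RNAi), and tin-10 passed the test. tin-10 was at 53.6, 60.9, 56.1 and 59.9 CPM in mtch-1(RNAi) samples and at 48.8, 52.6, 45.3 and 45.1 CPM in EV samples. The groups did not overlap, although the gap between the lowest mtch-1(RNAi) and the highest EV sample was narrow. tin-10 differed by 0.27 on the log2 scale (SE 0.07; edgeR adjusted p = 0.0118). tin-10 lies on chromosome III (11500867 to 11502853, minus strand, with 3 annotated transcripts). Its ring partner tin-9.1, on chromosome IV (7044058 to 7044602, minus strand), was at 44.5, 51.6, 50.6 and 50.7 CPM in mtch-1(RNAi) samples and at 47.5, 48.5, 43.4 and 42.4 CPM in EV samples. In tin-9.1 the mtch-1(RNAi) replicate 1 fell among the EV samples, and the other 3 lay above them. The log2 fold change of tin-9.1 was 0.12 (95% interval -0.03 to 0.27; edgeR adjusted p = 0.231). A related TIM9 gene, tin-9.2, had 65.5 to 74.8 CPM in mtch-1(RNAi) samples and 66.9 to 71.7 CPM in EV samples, with a log2 fold change of -0.01 (95% interval -0.12 to 0.10; edgeR adjusted p = 0.919).

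Among the outer membrane receptors, tomm-70 was lower, and tomm-20 and tomm-22 did not pass the test. tomm-70, the gene of the receptor that also docks cytosolic chaperones in yeast and mammals, stood at 86.3, 98.6, 102 and 101 CPM in mtch-1(RNAi) samples and at 102, 114, 116 and 122 CPM in EV samples. mtch-1(RNAi) replicate 3 and EV replicate 1 crossed by a small margin, and the other samples of the 2 groups were apart. On the log2 scale tomm-70 differed by -0.23 (SE 0.06; edgeR adjusted p = 0.0239). The call was lost without EV replicate 2 (edgeR adjusted p = 0.0565), 3 (0.0539) or 4 (0.0880), in the fit lacking the first mtch-1(RNAi) sample (0.0593), and with a dependence of fold change on gene length and level taken out (0.0963), an alternative chosen after seeing the data. Over all alternatives the adjusted p of tomm-70 ranged from 0.000641, with the replicate number as a block, to 0.0963. The gene (chromosome III, 8752095 to 8754750, minus strand, 10 exons) lies inside the span of sma-2 on the opposite strand with no shared exonic base, and sma-2 had a mean of 2.89 CPM in mtch-1(RNAi) and 2.90 CPM in EV.

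tomm-20, the gene of the receptor for cleavable targeting sequences, was at 111, 117, 124 and 112 CPM in mtch-1(RNAi) samples and at 110.0, 107, 105 and 107 CPM in EV samples. The groups did not overlap, but the lowest mtch-1(RNAi) sample and the highest EV sample were nearly equal. Its log2 fold change was 0.11 (95% interval 0.02 to 0.21; edgeR adjusted p = 0.0902). With only genes of at least 5 CPM on average in the fit, tomm-20 passed (0.15, edgeR adjusted p = 0.0176), in a fit that also called more of all genes higher (15.9%). tomm-22, the gene of the central receptor, was at 56.8, 65.0, 57.4 and 66.3 CPM in mtch-1(RNAi) samples and at 57.0, 65.5, 56.4 and 62.3 CPM in EV samples. These ranges nearly coincide, and replicates 2 and 4 were the higher ones in each group. The log2 fold change of tomm-22 was 0.03 (95% interval -0.12 to 0.18; edgeR adjusted p = 0.83). tomm-20 lies on chromosome V (12342314 to 12343469, minus strand) and tomm-22 on chromosome II (468374 to 470475, minus strand).

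The outer membrane pores were not called. tomm-40, the gene of the general entry channel, was at 186, 203, 195 and 191 CPM in mtch-1(RNAi) samples and at 188, 194, 178 and 193 CPM in EV samples. The groups overlapped broadly, with a log2 fold change of 0.04 (95% interval -0.06 to 0.13; edgeR adjusted p = 0.560). gop-3, the worm homolog of SAM50, was at 91.4, 93.2, 88.4 and 94.2 CPM in mtch-1(RNAi) samples and at 82.7, 84.3, 88.1 and 88.1 CPM in EV samples. The gop-3 groups touched without overlapping. gop-3 differed by 0.10 on the log2 scale (SE 0.04; edgeR adjusted p = 0.121). gop-3 passed in the fit limited to genes of at least 5 CPM (0.14, edgeR adjusted p = 0.0235) and with the dependence on length and level taken out (0.14, edgeR adjusted p = 0.0407). tomm-40 (chromosome II, 8971965 to 8973566, minus strand) shares 3 exonic bases with C18E9.5 on the opposite strand. gop-3 (chromosome III, 5260694 to 5263837, plus strand) overlaps C34E10.9 on the opposite strand in no exonic base.

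Without overlap between groups were 6 of the 10 genes, namely timm-23, timm-17B.1, tin-10, tomm-20, gop-3 and tin-44, beside 25.8% of all genes tested and 32.8% of those with a mean of at least 5 CPM. Comparing samples of the same replicate number, 6 genes were higher in mtch-1(RNAi) in 4 of 4 numbers (timm-23, timm-17B.1, tomm-20, gop-3, tin-10) or 3 of 4 (tin-9.1). tin-44 and tomm-70 were lower in 4 of 4, and tomm-22 and tomm-40 were split 2 against 2. How many of all genes tested kept the same direction in 4 of 4 numbers was not counted, so these counts only describe the 10 genes. The timm-23 log2 difference was 0.75, 0.74, 0.63 and 0.87 for numbers 1 to 4. In the authors' deposited table the same 5 genes have adjusted p-values under 0.05: timm-23 at a log2 fold change of 0.74, timm-17B.1 at 0.30, tin-10 at 0.26, tomm-70 at -0.23 and tin-44 at -0.25. The adjusted p-values of the other 5 in the authors' deposited table run from 0.165 (tomm-20) to 0.90 (tomm-22). That table comes from the same samples and adds no separate support, and its share of all genes under 0.05 was not counted. In the DESeq2 alternative run here on the deposited counts, 10.9% of all genes tested were higher and 13.8% lower.

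**Figure D2:**
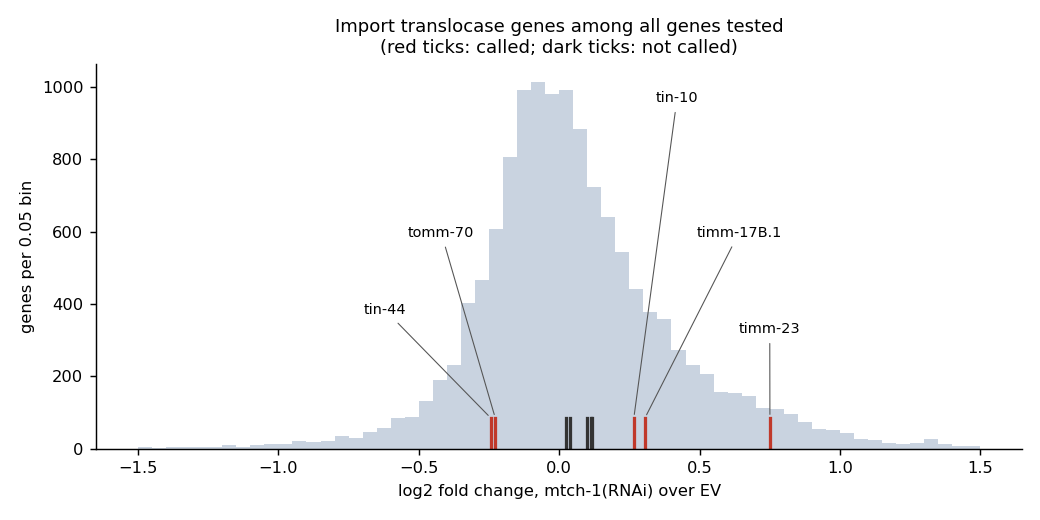
Number of genes (vertical axis) by log2 fold change, mtch-1(RNAi) over EV (horizontal axis, drawn to 1.5 on either side of 0, which leaves out 120 genes), with ticks at the 10 import genes. timm-23 at 0.75 lies in the right shoulder, and the other 9 lie between -0.24 and 0.31, within the bulk of all genes tested.

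Whether partner subunits kept their proportion was examined as a ratio within each sample, which does not depend on how libraries are scaled. The ratio was formed from counts per gene length for 3 pairs, and p-values were adjusted over the 3. The pairs were chosen with earlier results of these data known. A ratio uses the same counts as the single genes, so its p-value adds no separate support. timm-23 over timm-17B.1 was 0.826, 0.807, 0.765 and 0.860 in mtch-1(RNAi) samples and 0.591, 0.620, 0.607 and 0.578 in EV samples. Every mtch-1(RNAi) ratio was above every EV ratio. On the log2 scale the mean was -0.30 ± 0.07 in mtch-1(RNAi) and -0.74 ± 0.04 in EV (SD, n = 4), a difference of 0.44 (exact 2-sided permutation p = 0.0286, the smallest that 4 against 4 samples can give; adjusted p = 0.0429). The permutation treats the 8 samples as unpaired, although the replicate numbers pair them. Permuted within the 4 pairs, a test chosen after seeing the data, this difference does not pass (exact 2-sided paired permutation p = 0.125, the smallest that 4 pairs can give; adjusted p = 0.188), with a higher ratio in mtch-1(RNAi) in 4 of 4 pairs.

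The ratio of tin-9.1 over tin-10 moved the other way. It was 0.904, 0.921, 0.982 and 0.920 in mtch-1(RNAi) samples and 1.06, 1.00, 1.04 and 1.02 in EV samples. The groups were apart, with mtch-1(RNAi) replicate 3 closest to EV. The log2 means were -0.10 ± 0.05 in mtch-1(RNAi) and 0.05 ± 0.03 in EV (SD, n = 4), a difference of -0.15 (exact 2-sided unpaired permutation p = 0.0286; adjusted p = 0.0429). It was lower in mtch-1(RNAi) in 4 of 4 pairs, and the paired permutation again gave its smallest p (exact p = 0.125; adjusted p = 0.188). For tomm-22 over tomm-40 the log2 mean was -0.20 ± 0.10 in mtch-1(RNAi) and -0.19 ± 0.06 in EV (SD, n = 4), a difference of -0.01 (exact 2-sided permutation p = 0.857; adjusted p = 0.857). The receptor-to-channel ratios overlapped between groups.

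**Figure D3:**
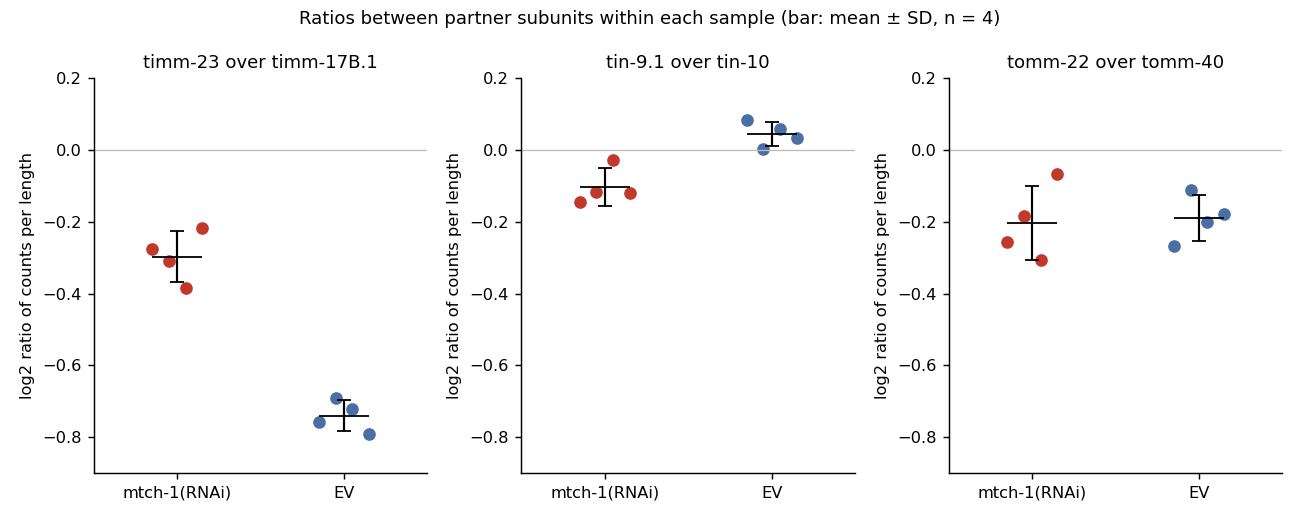
Log2 ratio of counts per gene length between partner subunits (vertical axes) in the 4 mtch-1(RNAi) and 4 EV samples, with mean ± SD. timm-23 over timm-17B.1 is higher and tin-9.1 over tin-10 lower in every mtch-1(RNAi) sample than in any EV sample, while tomm-22 over tomm-40 overlaps.

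Per kilobase of gene length the 10 genes were all well expressed but not equal. By mean level in EV they stood above 77.5% (gop-3) to 96.0% (timm-17B.1) of all genes tested. timm-17B.1 was the most abundant in all 8 samples, at 272 ± 14.4 CPM per kilobase in mtch-1(RNAi) and 220.0 ± 6.89 in EV (SD, n = 4). In EV, tomm-20 (145 ± 2.8), tomm-40 (142 ± 5.64), timm-23 (132 ± 5.67), tomm-22 (125 ± 9.0), tin-9.1 (118 ± 7.77) and tin-10 (114 ± 8.46 CPM per kilobase) followed, and in each of these neighbouring pairs the EV samples overlapped. tin-44 (72.2 ± 2.89), tomm-70 (59.1 ± 4.40) and gop-3 (56.1 ± 1.8 CPM per kilobase) formed a lower group, in which tomm-70 and gop-3 overlapped. In mtch-1(RNAi), timm-23 reached 222 ± 18.0 CPM per kilobase, against 132 ± 5.67 in EV, and took rank 2 of the 10 in place of rank 4. In that group all gop-3 samples were above all tomm-70 samples, whose mean was 50.5 ± 3.80 CPM per kilobase.

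**Figure D4:**
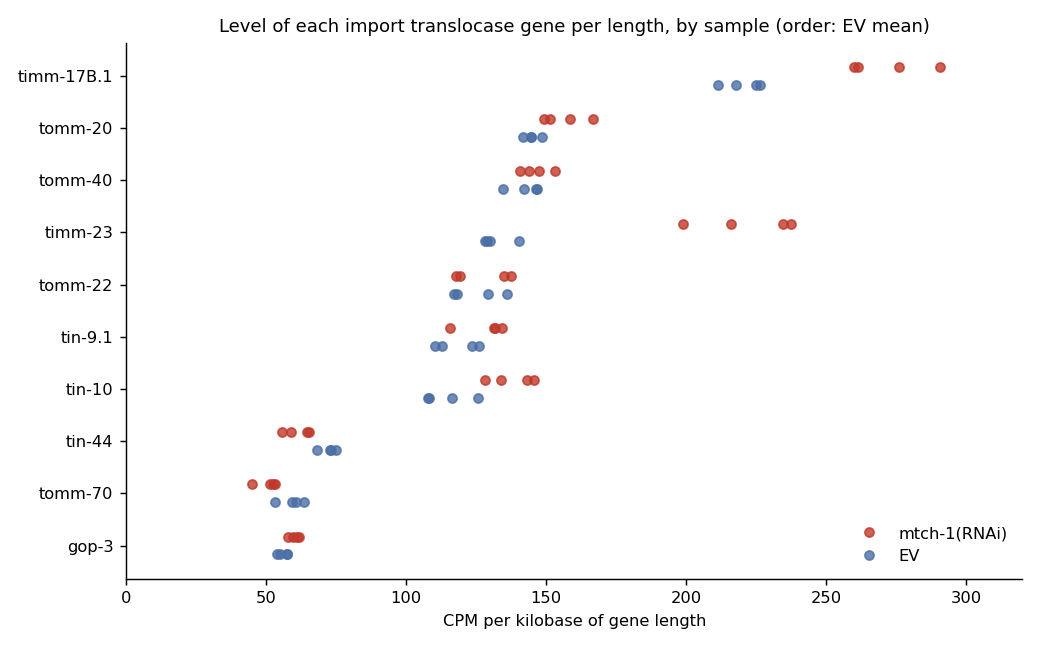
Level of each import gene in CPM per kilobase of gene length (horizontal axis, from 0), with 1 point per sample, ordered by the EV mean. timm-17B.1 is highest in every sample, and all mtch-1(RNAi) samples of timm-23 lie above all samples of tomm-20 and tomm-40.

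The inner membrane genes held a larger share of the summed import gene transcripts in mtch-1(RNAi) samples. The 10 genes summed to 1361 ± 61.9 CPM per kilobase in mtch-1(RNAi) and 1184 ± 36.8 in EV (SD, n = 4), with 1289 to 1428 in mtch-1(RNAi) samples and 1145 to 1232 in EV samples. timm-23, timm-17B.1 and tin-44 together made up 40.7% ± 0.985 of that sum in mtch-1(RNAi) and 35.8% ± 0.341 in EV. The 5 outer membrane genes made up 39.7% ± 0.775 in mtch-1(RNAi) and 44.5% ± 0.719 in EV, and the 2 small chaperone genes 19.5% ± 0.434 in mtch-1(RNAi) and 19.6% ± 1.03 in EV (SD, n = 4 for each share). timm-23 alone held 16.3% ± 0.946 in mtch-1(RNAi) and 11.1% ± 0.201 in EV. timm-17B.1 held 20.0% ± 0.411 in mtch-1(RNAi) and 18.6% ± 0.243 in EV, and tin-44 4.48% ± 0.298 and 6.10% ± 0.279. These sums and shares are descriptions without a test, and a share falls when another member of the sum rises.

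Other genes of the import route were read from 4 further lists, in which 17 of 20 names matched a gene in the table and all 17 were tested. Of these, 4 rose, 1 fell and 12 did not pass, beside 10% higher and 13% lower over all genes tested, with a median log2 fold change of 0.09. Among 6 other translocase subunits tomm-7, a small subunit that tunes the TOM complex in yeast, rose to 125 ± 11.8 CPM in mtch-1(RNAi), against 90.8 ± 7.44 CPM in EV (SD, n = 4; log2 fold change 0.46, SE 0.07; edgeR adjusted p = 0.000918). scpl-4, the homolog of the TIM50 receptor, and ddp-1, the homolog of the TIM8 chaperone, had log2 fold changes of 0.14 and 0.16 (edgeR adjusted p = 0.0992 and 0.0980). Both passed with the replicate number as a block (edgeR adjusted p = 0.0177 for scpl-4 and 0.0368 for ddp-1), which gave 3 called genes in this list and called 15% of all genes higher. tin-13, the homolog of TIM13, was at -0.08 (95% interval -0.23 to 0.07; edgeR adjusted p = 0.447).

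In the motor list of 5 genes, 2 rose and 0 fell. Over all genes tested 10% were higher and 13% lower, and over those of at least 5 CPM 11% and 19.4%. hsp-6, the mitochondrial HSP70 that pulls proteins inward, was at 1238, 1364, 1413 and 1389 CPM in mtch-1(RNAi) samples and at 1007, 1008, 981 and 1071 CPM in EV samples, with no overlap (log2 fold change 0.41, SE 0.05; edgeR adjusted p = 0.000298). C34C12.8, which carries only a sequence name, was higher by 0.30 (SE 0.04; edgeR adjusted p = 0.000591). dnj-21, the J-domain partner of HSP70 at the channel, had a log2 fold change of 0.21 (95% interval 0.05 to 0.37; edgeR adjusted p = 0.0559) and passed with the replicate block (edgeR adjusted p = 0.0273). dnj-10 (0.09) and F45G2.8 (-0.01) did not pass (edgeR adjusted p = 0.252 and 0.915). tin-44, which anchors this motor, thus fell while hsp-6 rose.

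The peptidases that cut off targeting sequences showed 1 fall among 4 genes, beside 13% lower over all genes tested and 19.4% over those of at least 5 CPM. mppa-1, the alpha subunit of the matrix processing peptidase, was at 19.9, 23.3, 23.9 and 22.2 CPM in mtch-1(RNAi) samples and at 24.8, 36.4, 26.9 and 29.8 CPM in EV samples. The groups did not overlap, and EV replicate 2 was the highest sample. mppa-1 differed by -0.40 on the log2 scale (SE 0.11; edgeR adjusted p = 0.0232). Leaving out 1 sample ended the call for EV replicate 2 (edgeR adjusted p = 0.0661), EV replicate 4 (0.0630), mtch-1(RNAi) replicate 1 (0.0599) and mtch-1(RNAi) replicate 4 (0.0606). Its partner mppb-1 had a log2 fold change of 0.10 (95% interval -0.04 to 0.25; edgeR adjusted p = 0.279). Of the metaxin genes, which work with SAM50 in the outer membrane, mtx-2 rose (0.23, SE 0.05; edgeR adjusted p = 0.00586), and mtx-1 had 0.08 (95% interval -0.12 to 0.28; edgeR adjusted p = 0.569).

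Import and the mitochondrial stress response are linked through atfs-1, a transcription factor that enters the nucleus when import is impaired, and timm-23 is often counted among the genes of that response. In a list of 11 stress and quality control genes, 3 rose and 3 fell, beside 10% higher and 13% lower over all genes tested and 11% and 19.4% over those of at least 5 CPM. hsp-6, the mitochondrial HSP70, is counted in the motor list and not here, and it rose (0.41, edgeR adjusted p = 0.000298) while hsp-60 fell. Beside atfs-1 (0.59), the inner membrane protease gene ymel-1 rose (0.38, SE 0.04; edgeR adjusted p = 9.03e-05), and so did clpp-1, the gene of a matrix protease (0.24, SE 0.06; edgeR adjusted p = 0.0112). hsp-60 (-0.58), spg-7 (-0.50) and the prohibitin gene phb-2 (-0.17, edgeR adjusted p = 0.0231) fell. phb-1, the other prohibitin gene, had 0.15 (95% interval 0.04 to 0.27; edgeR adjusted p = 0.0586) and passed with the replicate block (edgeR adjusted p = 0.0156). Leaving out 1 sample ended the phb-2 call for EV replicate 2 (edgeR adjusted p = 0.0796), EV replicate 4 (0.0722), mtch-1(RNAi) replicate 1 (0.0674) and mtch-1(RNAi) replicate 4 (0.0729). It also ended in the fit limited to genes of at least 5 CPM (edgeR adjusted p = 0.0516), with both samples numbered 1 left out (0.0578) and with the dependence on length and level taken out (0.164).

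**Figure D5:**
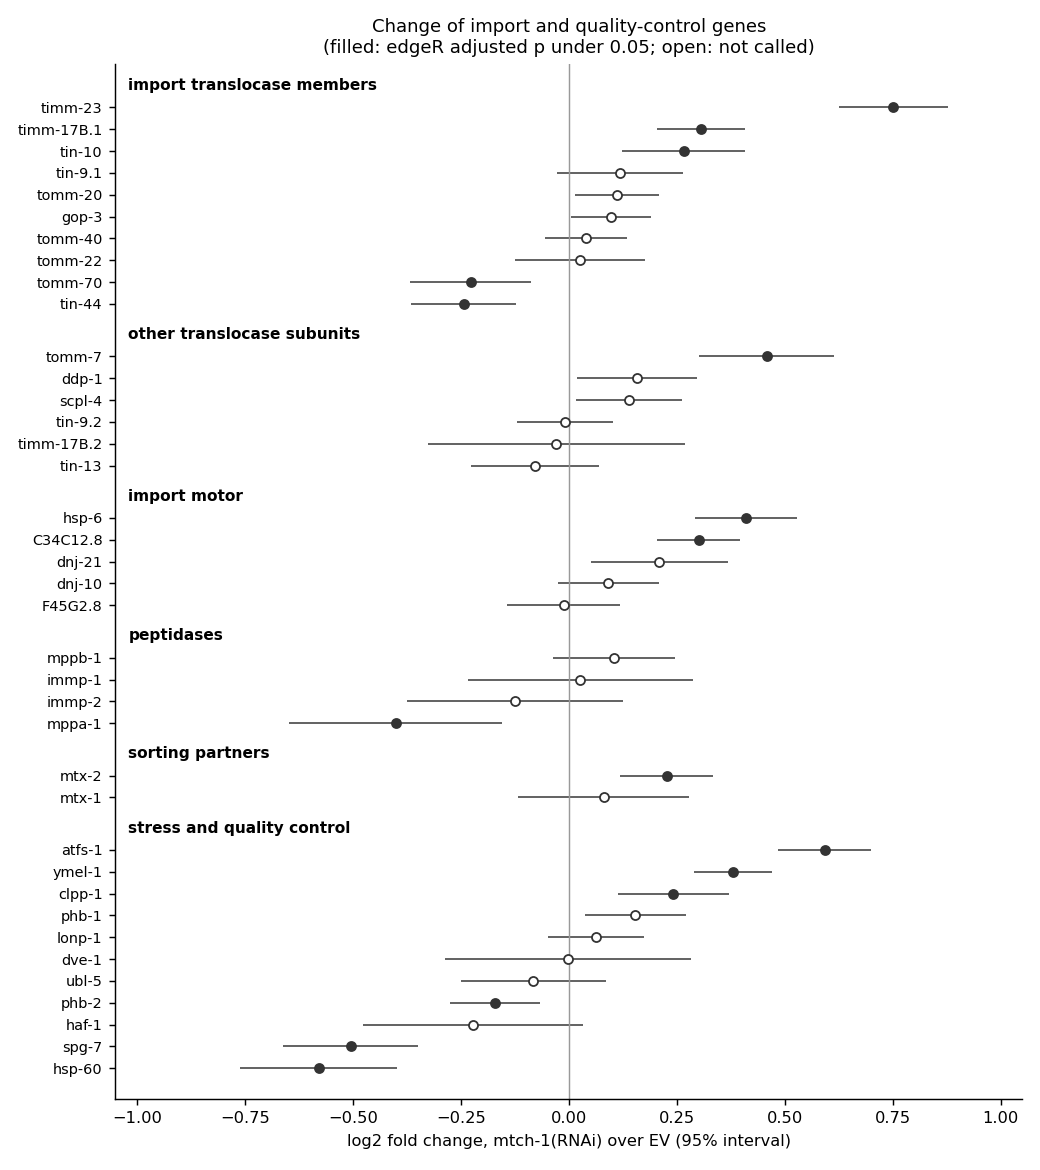
Log2 fold change, mtch-1(RNAi) over EV, with its 95% interval (horizontal axis) for the 10 import genes and the genes of 5 further lists. Filled points passed the edgeR test at an adjusted p under 0.05; called genes of both directions occur in the import genes (3 higher, 2 lower) and in the stress and quality control list (3 and 3).

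The genes most like timm-23 across the 8 samples were found by the root mean square difference between log2 CPM profiles, each centred on its own mean, among 8533 other genes of at least 5 CPM. mrpl-9 was closest at 0.0457, followed by dohh-1 (0.0774), mel-46 (0.0803), F55A3.7 (0.0826) and Y54G2A.21 (0.0831). Their log2 fold changes were 0.68, 0.81, 0.85, 0.83 and 0.75 in that order, beside 0.75 for timm-23. For timm-17B.1 the closest were fdps-1 (0.0274), C34C12.8 of the motor list (0.0323), icd-2 (0.0349), T07E3.3 (0.0364) and C39B5.6 (0.0389). Their log2 fold changes lay between 0.28 (C39B5.6) and 0.33 (T07E3.3). Because the profiles include the difference between the groups, this likeness is a description of these samples.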

How the data were processed

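RNA from 8 samples of whole worms was sequenced. The submitters' processing notes name the WBcel235 build and the tools HISAT2 2.0.5, DESeq2 and featureCounts 1.5.0-p3. RNA selection, strandedness and settings: not given in the sources used here. The authors deposited, per the file headers, gene-level read counts, a size-factor scaled signal, FPKM values, gene lengths in bases (another unit), and their log2 fold changes with p-values. The tests used the counts.

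The test was that of edgeR 4.0.16 under R 4.3.3 (quasi-likelihood F test, TMM, default expression filter, Benjamini-Hochberg adjustment over all genes tested), without the replicate block. Standard errors are the log2 fold change over the square root of F, and 95% intervals use the test's degrees of freedom. Levels are CPM on TMM effective library sizes, per kilobase by the deposited gene length. Ratios were compared by exact permutation in SciPy 1.17.1. The code was tested on simulated data.

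Coordinates (1-based gene spans) came from the Ensembl annotation of the same build, in which 20542 of 20871 table identifiers matched. Symbols came from that annotation where it holds a name and otherwise from RefSeq, and list names were also sought among RefSeq symbols and synonyms. Of the columns of per-sample values, 0 were left unmapped. timm-22, timm-50 and timm-21 matched no gene name, although the TIM50 homolog was read under its own name, scpl-4. Groups and numbers came from the titles. No label states separate cultures. The p-values therefore measure only the spread among the 8 samples, which may be technical. No pair within a group was within sampling noise (chi-square per degree of freedom 6.28 to 14.0). Same-numbered samples deviated together (correlations 0.342, 0.205, 0.242 and 0.185), above the limit of 0.1 in all 4 pairs, so the numbers pair the samples.

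The members, lists and ratios were chosen with earlier results of these data known. The genes named are all 10 import genes, mtch-1, list genes with their values, and the 5 closest profiles of the 2 called import genes with the largest change. Alternatives were DESeq2 size factors, DESeq2 1.42.0, limma-voom 3.58.1, 2 other count filters, the replicate block, each sample left out, the authors' deposited FPKM for the ratios, and, added after seeing the data, permuting ratios within pairs, leaving out replicate 1 of both groups and removing a trend with gene length and level.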

Additional observations from a re-analysis of the deposited data

Results flagged for a closer look

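In 84 sets of 4 samples (the CPM of the genes in the lists and the 3 ratios, in each group), 5 held a sample whose distance to the nearest other sample was over Dixon's 95% critical value as a share of the whole range. Chance gives about 1 in 20 such sets. timm-23 was at 122 CPM in EV replicate 2, against 111 to 113 CPM in the other EV samples. tin-9.1 was at 44.5 CPM in mtch-1(RNAi) replicate 1, against 50.6 to 51.6 CPM in the others of its group, and without that sample its log2 fold change was 0.17 (edgeR adjusted p = 0.101). clpp-1 was at 48.1 CPM in mtch-1(RNAi) replicate 2, against at most 44.6 CPM in the others of its group. atfs-1 was at 146 CPM in EV replicate 3, against 151 to 152 CPM in the others, and spg-7 at 149 CPM in EV replicate 4, against 132 to 134 CPM in the others.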

How the results depend on the processing

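Of the 10 import genes and mtch-1, 7 kept their direction and side of the threshold under all 16 alternatives. timm-23 ranged from 0.72 to 0.80 on the log2 scale with single samples left out. The fit limited to genes of at least 5 CPM, whose scaling moved the median of all genes by 0.04, called 5 import genes and 3 other translocase subunits higher, beside 15.9% of all genes higher and 16.1% lower; there tin-9.2 (0.029), timm-17B.2 (0.0080), F45G2.8 (0.026) and dve-1 (0.035) turned positive without being called. dve-1 also did in limma-voom (0.0053) and with no count filter (0.0044). With the replicate block, 3 other translocase subunits were higher, beside 15% of all genes, and the block changed the call of no import gene. Without replicate 1 of both groups, 2 other translocase subunits were higher, beside 872 genes in all (6.60% of those tested). In that fit tin-9.2 (0.0038) and F45G2.8 (0.017) changed sign. With the length and level trend removed, 1 import gene was lower and 2 other translocase subunits were higher, beside 10.3% of all genes lower and 8.96% higher. There gop-3 joined the import genes called higher, and tin-9.2 (0.0079) and immp-1 (-0.026) changed sign. The causes were not tested.

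With single samples left out, the import genes called stayed at 3 higher and ran from 1 to 2 lower. The other translocase subunits called higher ran from 1 to 2 and the peptidases called lower from 0 to 1. With no sample left out, 1325 of all 13252 genes tested were called higher and 1728 lower. In the fits lacking 1 sample, 1011 to 1261 of 13343 to 13474 genes tested were called higher and 1219 to 1632 lower. The log2 fold changes ran from -0.0061 to 0.076 for tomm-22, from -0.038 to 0.016 for tin-9.2, from -0.11 to 0.061 for timm-17B.2, from -0.039 to 0.015 for F45G2.8, from -0.043 to 0.092 for immp-1 and from -0.066 to 0.077 for dve-1, none of them called. The log2 ratio differences ran from 0.42 to 0.47 for timm-23 over timm-17B.1, from -0.17 to -0.13 for tin-9.1 over tin-10 and from -0.06 to 0.02 for tomm-22 over tomm-40, without a test, since 4 against 3 samples cannot pass. With the replicate block their sizes (0.44, -0.15 and -0.01) cannot change, since the pairs are complete; permuted within pairs, the adjusted p was 0.188 for timm-23 over timm-17B.1 and for tin-9.1 over tin-10 and 1 for tomm-22 over tomm-40, in a design too small to pass.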
